A study of Homo sapiens with 12 samples.

Results

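CD146, a cell surface adhesion molecule encoded by MCAM, was lowered with a short hairpin RNA (shRNA) in libraries labelled Hep3B, an established line from a human liver tumour. These 6 of the 12 libraries of the study were chosen by their labels: 3 carried a control shRNA and 3 an shRNA against CD146, and in all 6 the shRNA was induced from a tetracycline-responsive (Tet-on) system. The other 6 libraries, HepG2 with an empty pLVX vector or with CD146 overexpression, were used here only as a source of reference levels. Poly(A) RNA was sequenced, and counts per gene were the measurement. The libraries of a group are numbered 1 to 3 in the labels, which do not say whether a number marks a hairpin, a culture or a repeat library. The p-values are thus relative to the spread of 3 libraries a group, possibly no more than technical spread. Neither the hairpin sequences nor the length of induction is known here.

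CD146 belongs to the immunoglobulin superfamily and joins cells to one another and to the laminins of the basement membrane. It also binds soluble ligands, among them netrin-1 and WNT5A, and acts beside growth factor receptors. Inside the cell its tail contacts proteins of the ERM family, which link membrane proteins to actin, and the kinase FYN. Endothelial cells and pericytes carry it, and many carcinomas and melanomas do.

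MCAM had 114, 112 and 119 CPM under the control shRNA and 22, 24.2 and 26.9 CPM under the CD146 shRNA. CPM is the count per 1000000 of a library total adjusted by TMM, a scaling that sets the bulk of genes equal between libraries. All 3 knockdown libraries lay below all 3 control libraries, and MCAM was left at 21.2% of control (log2 fold change -2.25, SE 0.06, adjusted p = 5.5e-29). Here and below, log2 fold changes are CD146 shRNA minus control shRNA with their standard error (SE), and adjusted p-values are from the quasi-likelihood test of edgeR with Benjamini-Hochberg adjustment over all 16968 genes tested. The exact 2-sided permutation test of the 6 values gave p = 0.1, and no smaller p can be had from 3 libraries a group. MCAM overlaps CBL in the annotation. In all, 76 of the 185 genes that the naming rule gave overlap another counted gene, and how strands were counted is not given in the sources used here.

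Totals lay between 13777262 and 16678519 counts in the control libraries and between 14116977 and 18129816 in the knockdown libraries, so that 3 counts, the floor of detection used here, were worth 0.166 to 0.217 CPM. A gene is said to have risen, fallen or been called when its adjusted p was under 0.05. Of the genes tested, 55.3% were called, 26.8% upward and 28.5% downward, and 6.01% rose and 2.02% fell at least 2-fold. The replicates were tight, with a biological coefficient of variation of 3.79%, so that small changes passed the test. Weakly counted genes were called upward more often, 382 against 99 downward under 1 CPM and 1031 against 399 between 1 and 5 CPM, while from 20 to 100 CPM 1417 rose and 2371 fell. Among the 11392 genes with a mean of at least 5 CPM, 27.6% rose and 38.0% fell, the shares that the counts of moderately and strongly expressed gene groups below are set beside. This excess of falls rests on scaling with all genes tested. Scaled and fitted on their own, 32.4% of 11390 genes of this level rose and 33.0% fell, and their median log2 fold change moved from -0.059 to -0.007. Each gene named below with CPM values for both groups had 3 libraries of one group above all 3 of the other, as had 59.8% of all genes tested (29.1% higher and 30.7% lower with the knockdown), except where values are said to overlap.

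Knockdown replicate 3 was checked for transcripts of the other line before weakly counted genes were used. The check took 103 genes with at least 50 CPM in HepG2 and at most 2 counts in each control library. Their summed count was 42, 40 and 45 in the control libraries, which had been used to choose them. It was 107 and 89 in knockdown replicates 1 and 2 and 626 in replicate 3. These sums were 0.0157%, 0.0138% and 0.118% of the level in HepG2, and the exact Poisson 95% interval of the last was 0.109% to 0.128%, which covers counting error only. Albumin (ALB) had 0, 5 and 0 counts in the control libraries and 1, 1 and 298 in the knockdown libraries. Alpha-fetoprotein (AFP) had 0 counts in each control library and 1, 1 and 72 with the knockdown, and the fibrinogen chain FGA 1, 0 and 0 and 0, 0 and 43. These markers were thus high in knockdown replicate 3 only, and the other knockdown libraries overlapped the controls for ALB and FGA. Transthyretin (TTR), with 28.5 CPM in HepG2, went the other way, with 0 counts in each control library and 12, 20 and 2 with the knockdown. Scaled from HepG2, the trace would amount to over 10% of the count in replicate 3 for 40 tested genes, of which 11 rose and 8 fell. Of these 40, FN1 (fibronectin, 53.7% of its replicate 3 count) and SLC38A5 (an amino acid transporter, 17.9%) had at least 5 CPM. FN1 had 4.25, 3.39 and 4.99 CPM in the control and 10.9, 13.8 and 19.7 CPM with the knockdown, with a log2 fold change of 1.77 over all libraries and 1.53 without replicate 3. For the genes of the naming rule the trace amounted to at most 4.48%, in MCAM. The HepG2 level used is the mean of all 6 HepG2 libraries, among them those that overexpress CD146, so the value for MCAM depends on them.

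**Figure D1:**
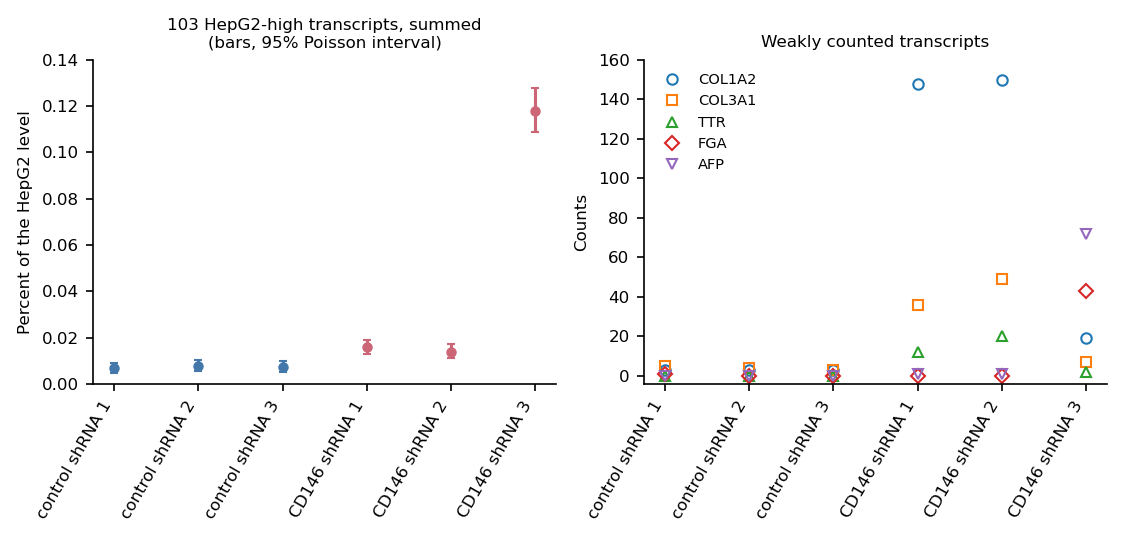
Left, summed counts of 103 transcripts that were high in HepG2 and nearly uncounted in the control libraries, as a percent of their HepG2 level (points, libraries; bars, exact Poisson 95% interval); knockdown replicate 3 lies at 0.118% and the other 5 libraries at 0.0157% or below. Right, counts of 3 liver transcripts (TTR, FGA, AFP) and 2 collagen transcripts (COL1A2, COL3A1) in each library; COL1A2 has 148 and 150 counts in knockdown replicates 1 and 2 and 19 in replicate 3, and TTR has 12, 20 and 2, unlike FGA (0, 0 and 43) and AFP (1, 1 and 72).

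Knockdown replicate 3 also differed from replicates 1 and 2 in genes other than these. By a rule chosen after seeing the data, 4 genes with at least 2 CPM in both other libraries were at least 3-fold lower in it, and 12 were at least 3-fold higher, 11 of these with at least 50 CPM in HepG2. In control replicates 2 and 3 the same rule found 1 higher gene each (NAV3 and CXCL8), and in the remaining 3 libraries it found 0. The 4 lower genes were SPARC, a matrix glycoprotein, IGFBP5, an IGF binding protein, COL1A2, a chain of type I collagen, and GREM1, a secreted BMP antagonist. SPARC had 1.12, 0.722 and 0.951 CPM in the control and 5.92, 6.83 and 1.74 CPM with the knockdown (log2 fold change 2.39, and 2.74 without replicate 3). COL1A2 had 3 counts in each control library and 148, 150 and 19 with the knockdown, and COL3A1 had 5, 4 and 3 and 36, 49 and 7. IGFBP5 stood at 3.82, 3.21 and 0.795 CPM and GREM1 at 5.14, 4.21 and 0.362 CPM with the knockdown. COL1A1, the other chain of type I collagen and far more abundant, had 59.9, 60.5 and 53.7 CPM in the control libraries against 97.1, 96.6 and 84.2 CPM (log2 fold change 0.68, and 0.74 without replicate 3). Of 13 fibroblast and stellate cell markers 7 were tested, 4 rose and 0 fell, and their summed level was 67.8 to 77.3 CPM in the control and 107.0 to 131.9 CPM in the knockdown libraries. LUM, a defining marker, had 0 counts in each control library and 3, 4 and 0 counts with the knockdown, so that its groups overlapped. The part of such cells in these values was not tested.

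The liver label was checked against 29 hepatocyte markers, of which 15 had at most 3 counts in each of the 5 libraries other than knockdown replicate 3. FOXA2 and ITIH1 had 0 counts in all 6. The secreted proteins that define hepatocytes, such as albumin, alpha-fetoprotein and the fibrinogen chains, were thus at or near 0 outside that replicate, which goes against the label, and the libraries are called here by their label only. CPS1, the first enzyme of the urea cycle, the keratins KRT8 and KRT18, complement C3 and the transcription factor HNF4A were present, HNF4A at 7.93 and 9.19 CPM in the means of overlapping groups. The summed level of the list was 2801 to 2815 CPM in the control and 4401 to 4659 CPM in the knockdown libraries, most of it CPS1, and 5 of its 8 tested members rose and 2 fell. Of 11 cholangiocyte markers 8 were tested, 1 rose and 3 fell (summed level 374 to 401 and 363 to 378 CPM). Of 15 endothelial markers 7 were tested, 3 rose and 2 fell (42.6 to 45.6 and 64.7 to 67.0 CPM). VE-cadherin (CDH5), an adhesion molecule of endothelial junctions, made up most of the difference, rising from 0.649, 0.722 and 0.891 CPM to 19.8, 21 and 19.5 CPM. The von Willebrand factor gene VWF went from a mean of 0.861 to 2.34 CPM and ESAM from 14.1 to 20.1 CPM, while KDR had 0 counts in all 6 libraries. The transcription factors of the list went the other way, SOX17 from a mean of 6.69 to 4.07 CPM and SOX18 from 0.763 to 0.455 CPM. ERG was at 18.9 and 16.1 CPM in the means of overlapping groups. The part of endothelial cells in these values was not tested. Of 11 leukocyte markers 2 were tested and 0 were called. Fewer cells of a type and less RNA per cell cannot be told apart in such libraries.

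Of 23 genes listed as ligands and partners of CD146, 18 were tested, 7 rose and 8 fell, with a median log2 fold change of -0.04 against 0.001 over all genes tested. FYN, the kinase bound by the CD146 tail, measured 78.5, 73.7 and 78.4 CPM with the control and 124, 123 and 119 CPM with the knockdown (log2 fold change 0.66, SE 0.05, adjusted p = 3e-15). The laminin chain LAMB1 had 616, 618 and 643 CPM under the control shRNA and 878, 857 and 844 CPM under the CD146 shRNA (log2 fold change 0.46). Both were higher in every knockdown library, as the naming rule required. The soluble ligand netrin-1 (NTN1) was at 12.3, 11 and 12.6 CPM in the control libraries and at 4.87, 4.51 and 5.57 CPM in the knockdown libraries (log2 fold change -1.28), and the ligand WNT5A measured 45, 52 and 49.9 CPM with the control and 33.1, 33.1 and 32.2 CPM with the knockdown (log2 fold change -0.57). Both ligands were lower in every knockdown library, again a condition of the rule. The receptor PDGFRB, which CD146 assists as a co-receptor, rose from 4.82 ± 0.969 CPM to 8.72 ± 0.372 CPM (log2 fold change 0.86), and the Wnt receptor FZD3 fell from 16.3 ± 1.03 CPM to 10 ± 0.902 CPM (log2 fold change -0.71). Members that are not of the naming rule, such as these 2, were chosen after their values were seen.

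Among 22 tested adhesion molecules of the immunoglobulin family 8 rose and 6 fell (median log2 fold change 0.13). Basigin (BSG), a chaperone of lactate transporters that also induces matrix proteases, had 648, 674 and 669 CPM under the control shRNA and 1119, 1256 and 1196 CPM under the CD146 shRNA (log2 fold change 0.84, SE 0.04, adjusted p = 9.8e-20). The neural adhesion molecule L1CAM was at 332, 322 and 336 CPM in the control libraries and at 496, 554 and 533 CPM in the knockdown libraries (log2 fold change 0.68). CADM1, a junctional adhesion molecule lost in many tumours, measured 41.4, 45.2 and 47 CPM with the control and 14.8, 14.6 and 14.1 CPM with the knockdown (log2 fold change -1.61, SE 0.07, adjusted p = 2.5e-21), so that it was left at 32.6% of control. IGSF3 fell from 138 ± 3.95 CPM to 97.8 ± 2.12 CPM (log2 fold change -0.49). ALCAM, a close relative of CD146 in domain order, was not called at 356 ± 30.9 and 369 ± 15.4 CPM (log2 fold change 0.05, adjusted p = 0.4), and its groups overlapped. Both BSG and L1CAM overlap an antisense gene. Of 19 tetraspanins, membrane organisers that sit beside adhesion receptors, 7 rose and 4 fell. CD9 rose from 212 ± 6.82 CPM to 287 ± 10.5 CPM (log2 fold change 0.44) and TSPAN1 from 13.6 ± 2.02 CPM to 25 ± 0.997 CPM (0.88). CD82, known as a suppressor of metastasis, fell from 11.1 ± 0.11 CPM to 3.77 ± 0.457 CPM (log2 fold change -1.56), and TSPAN12, a partner of Frizzled 4, fell from 9.72 ± 0.829 CPM to 4.47 ± 0.968 CPM (-1.1). Of 36 tested proteoglycan core proteins and enzymes of heparan sulphate, 11 rose and 11 fell. The basement membrane proteoglycan agrin (AGRN) had 298, 306 and 304 CPM under the control shRNA and 499.5, 587 and 539 CPM under the CD146 shRNA (log2 fold change 0.84), and the syndecan SDC4 rose from 156 ± 8.92 CPM to 265 ± 7.83 CPM (0.76). UGDH and UXS1, the enzymes that make the UDP-glucuronate and UDP-xylose needed for the chains, fell, UGDH from 79.3 ± 3.03 CPM to 50.6 ± 3.53 CPM (-0.65) and UXS1 from 80.6 ± 0.529 CPM to 45.4 ± 3.65 CPM (-0.83).

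**Figure D2:**
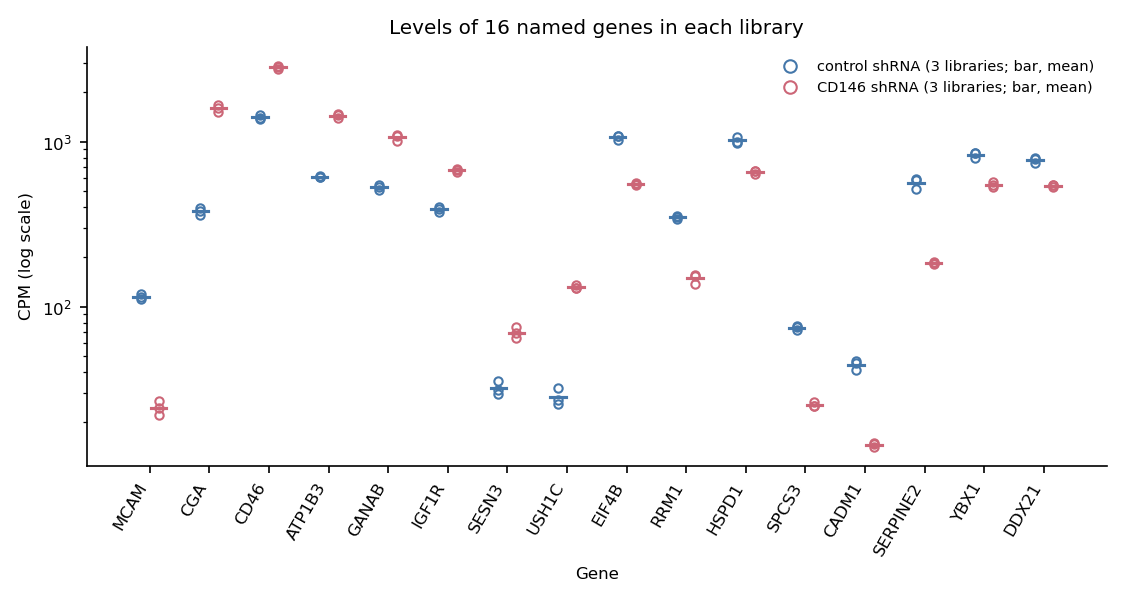
Levels in CPM (log scale) of 16 genes in the 3 control shRNA libraries (blue) and the 3 CD146 shRNA libraries (red), with bars at the group means. The groups do not overlap for any of the 16, a condition of the naming rule for most of them. Of all genes tested, 59.8% had groups that do not overlap. The distance between groups exceeds the spread within them, from MCAM at 114.9 and 24.4 CPM to CGA at 380.1 and 1592 CPM.

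Of 29 tested actomyosin and actin cross-linking genes 8 rose and 10 fell (median log2 fold change -0.03). The myosin light chain kinase MYLK was at 19.1, 18.3 and 18.2 CPM in the control libraries and at 54.5, 49.5 and 51.3 CPM in the knockdown libraries (log2 fold change 1.48, SE 0.07, adjusted p = 2.5e-21), which was a 2.79-fold rise. LIMA1, an actin filament stabiliser, rose from 219 ± 5.23 CPM to 381 ± 8.03 CPM (log2 fold change 0.8). Fascin (FSCN1), which bundles the filaments of filopodia, measured 248, 250.1 and 239.7 CPM with the control and 153, 161 and 148 CPM with the knockdown (log2 fold change -0.67). Cofilin (CFL1), which severs filaments, fell from 393 ± 11.5 CPM to 288 ± 16.2 CPM (-0.45).

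In the Notch pathway 10 of 31 tested genes rose and 10 fell (median log2 fold change 0.05). ADAM17 and ADAM10, the proteases that cut Notch receptors after ligand binding, rose, ADAM17 from 91.4 ± 2.97 CPM to 145 ± 3.1 CPM (log2 fold change 0.67) and ADAM10 from 218 ± 4.81 CPM to 283 ± 5.83 CPM (0.38). The ubiquitin ligase DTX4 had 20.7, 18.2 and 21.8 CPM under the control shRNA and 2.43, 2.2 and 2.31 CPM under the CD146 shRNA (log2 fold change -3.13, SE 0.13, adjusted p = 1e-22). The feedback inhibitor NRARP, a Notch target, was at 71.8, 64.6 and 66.6 CPM in the control libraries and at 33.1, 32.2 and 35.1 CPM in the knockdown libraries (log2 fold change -1.02), while the Notch target HES1 rose from 4.27 ± 0.214 CPM to 8.8 ± 0.778 CPM (1.04), so the targets did not move in one direction.

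Of 37 tested genes of the TGF-beta and BMP pathway 9 rose and 18 fell (median log2 fold change -0.17). The ligand BMP2 measured 29.5, 26.1 and 26.3 CPM with the control and 70.1, 75 and 72.2 CPM with the knockdown (log2 fold change 1.41, SE 0.06, adjusted p = 3.6e-22), and the co-receptor TGFBR3 had 128, 124 and 138 CPM under the control shRNA and 256, 248 and 255 CPM under the CD146 shRNA (log2 fold change 0.96). LTBP1, which tethers latent TGF-beta to the matrix, was at 78.3, 72.2 and 76.9 CPM in the control libraries and at 39.7, 37.2 and 34.7 CPM in the knockdown libraries (-1.02), and BMP6 fell from 26.1 ± 0.714 CPM to 15.4 ± 0.751 CPM (-0.76). The signal transducer SMAD3 rose from 54.8 ± 3.36 CPM to 93.6 ± 2.76 CPM (0.78). ID1, ID2 and ID3, target genes of BMP signalling, had log2 fold changes of -0.47, -0.39 and -0.21 and all passed the test, though the libraries of ID2 overlapped between groups. Of 13 Hedgehog pathway genes 0 rose and 6 fell; the naming rule gave GPR161, a receptor of the primary cilium, which fell from 32.6 ± 3.34 CPM to 15.4 ± 0.798 CPM (-1.09), and the co-receptor CDON, which fell from 13.1 ± 0.571 CPM to 7.07 ± 0.378 CPM (-0.89). The transcriptional targets GLI1 and PTCH1 were not called (log2 fold changes -0.14 and -0.10).

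Guidance and growth factor receptors held rises and falls within families, as did all genes tested (26.8% risen and 28.5% fallen). Members of each direction were named because the naming rule took both. Of 13 Eph receptors and ephrins 4 rose and 2 fell. EPHA2 measured 166, 183 and 193 CPM with the control and 244, 277 and 257 CPM with the knockdown (log2 fold change 0.52), and its ligand ephrin-A1 (EFNA1) rose from 81.9 ± 1.88 CPM to 115 ± 3.83 CPM (0.48), while ephrin-B2 (EFNB2) fell from 21.3 ± 2.75 CPM to 9.94 ± 0.569 CPM (-1.1) and EPHB4, its receptor, fell slightly from 92.2 ± 2.16 CPM to 81.5 ± 4.21 CPM (-0.18, adjusted p = 0.002). Of 27 semaphorins, plexins, Slits and Robos 9 rose and 7 fell. SEMA3B had 110.1, 103 and 104 CPM under the control shRNA and 206, 225 and 216 CPM under the CD146 shRNA (log2 fold change 1.03, SE 0.05, adjusted p = 9.5e-22), and SEMA6D, weakly counted in controls, rose from 2.11 ± 0.717 CPM to 15.7 ± 0.808 CPM (2.88). Neuropilin-2 (NRP2), a co-receptor of semaphorins and VEGF, was at 22.6, 22 and 22.3 CPM in the control libraries and at 8.46, 9.08 and 8.1 CPM in the knockdown libraries (-1.38), and PLXNA2 fell from 58.8 ± 2.15 CPM to 40.2 ± 1.18 CPM (-0.55). Of 27 tested receptors and ligands of the FGF, IGF, PDGF and HGF families 15 rose and 6 fell (median log2 fold change 0.21). The insulin-like growth factor receptor IGF1R measured 376, 393 and 401 CPM with the control and 656, 679 and 677 CPM with the knockdown (log2 fold change 0.78, SE 0.04, adjusted p = 1.8e-19). FGFR4, the main FGF receptor of hepatocytes, rose from 30.5 ± 4.54 CPM to 52.7 ± 4.97 CPM (0.78), while FGFR1 had 70.8, 70.1 and 70.8 CPM under the control shRNA and 36.3, 38.3 and 34.3 CPM under the CD146 shRNA (-0.95). KITLG, the ligand of KIT, fell from 29.7 ± 0.853 CPM to 17.4 ± 0.502 CPM (-0.78).

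Of 33 tested genes of the PI3K, AKT and mTOR pathway 9 rose and 13 fell (median log2 fold change -0.07). SESN3, a sestrin that restrains mTORC1, was at 35.2, 31.2 and 29.5 CPM in the control libraries and at 75.3, 69 and 64.1 CPM in the knockdown libraries (log2 fold change 1.12, SE 0.07, adjusted p = 5e-18). Each knockdown library lay above each control library, a condition of the naming rule. SESN2, another sestrin, rose from 9.69 ± 0.822 CPM to 18.3 ± 1.29 CPM (0.91). The catalytic subunit PIK3CA fell from 41.1 ± 0.726 CPM to 31.1 ± 2 CPM (-0.4) and the translation repressor EIF4EBP1 fell from 41.2 ± 1.46 CPM to 31.3 ± 2.22 CPM (-0.4). The kinases MTOR and AKT2 were not called (log2 fold changes -0.07 and 0.10). Of 35 JAK-STAT genes and cytokine receptors 13 rose and 13 fell. LIFR, the receptor of leukaemia inhibitory factor, measured 442, 446 and 475 CPM with the control and 753, 721 and 752 CPM with the knockdown (log2 fold change 0.71, SE 0.04, adjusted p = 6.5e-18). IL6 rose from 0.988 ± 0.094 CPM to 5.56 ± 0.784 CPM (2.5) from a level near 1 CPM. The interferon receptor chain IFNAR1 had 117, 115 and 126 CPM under the control shRNA and 73.2, 73 and 76.6 CPM under the CD146 shRNA (-0.69), STAT6 fell from 120.0 ± 0.98 CPM to 86.5 ± 1.33 CPM (-0.47), and the STAT5 target SOCS2 fell from 16.7 ± 0.716 CPM to 8.29 ± 0.0331 CPM (-1.01).

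Since a hairpin RNA was induced in all 6 libraries, sensors of double-stranded RNA were described. Of 20 tested genes of this list 5 rose and 9 fell, with a median log2 fold change of 0.004. The RNA-activated kinase PKR (EIF2AK2) was at 203, 192 and 196 CPM in the control libraries and at 159, 149 and 149.8 CPM in the knockdown libraries (-0.37), and OAS3 fell from 120.1 ± 4.35 CPM to 90.7 ± 2.76 CPM (-0.4). The interferon-stimulated genes ISG15 and OASL rose, ISG15 from 11.5 ± 0.2 CPM to 18.3 ± 0.76 CPM (0.67) and OASL from 9.73 ± 0.717 CPM to 15.5 ± 0.995 CPM (0.66). Of 21 genes of the small RNA machinery, which processes hairpins and loads them onto Argonaute, 6 rose and 9 fell. DICER1, which cuts hairpin precursors, measured 146, 143 and 159 CPM with the control and 220.2, 213 and 219 CPM with the knockdown (log2 fold change 0.54, SE 0.04, adjusted p = 1.5e-13). AGO2, the Argonaute that cleaves its target, rose from 259 ± 3.93 CPM to 327 ± 14.3 CPM (0.34), and the uridylyltransferase TUT4 rose from 169.5 ± 2.42 CPM to 221 ± 4.14 CPM (0.38). The transport GTPase RAN fell from 735 ± 10.7 CPM to 586 ± 15.6 CPM (-0.33) and DIS3L2, which degrades uridylated RNA, fell from 25.4 ± 1.66 CPM to 18.4 ± 1.63 CPM (-0.48).

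Lists of genes of the nucleus, of RNA and of protein synthesis held more falls than rises, mostly of small size. Genes of at least 5 CPM as a whole did so too, with 38.0% fallen and 27.6% risen. Of 40 tested genes of ribosome biogenesis and RNA polymerase I, 36 fell and 1 rose (median log2 fold change -0.34). DDX21, a nucleolar helicase, had 739.9, 782 and 791 CPM under the control shRNA and 547, 529.5 and 544 CPM under the CD146 shRNA (log2 fold change -0.51, SE 0.04, adjusted p = 6.9e-14). UTP20, a component of the small subunit processome, was at 120.1, 123 and 126 CPM in the control libraries and at 79.5, 79.8 and 83.7 CPM in the knockdown libraries (-0.6). POLR1D, a subunit of RNA polymerases I and III, rose from 55.4 ± 4.21 CPM to 63.3 ± 1.62 CPM (log2 fold change 0.19, adjusted p = 0.0039), a call that was lost without control replicate 3 (0.14) and with limma on FPKM (0.16). Of 16 genes of the CCT chaperonin and prefoldin, which fold actin and tubulin, 14 fell and 0 rose (median -0.39). CCT4 measured 368, 369.8 and 361 CPM with the control and 234, 238 and 248 CPM with the knockdown (-0.61), and CCT6A fell from 592 ± 8.84 CPM to 413 ± 16.6 CPM (-0.52).

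Of 44 splicing factors 30 fell and 5 rose (median log2 fold change -0.25). HNRNPA2B1 had 1856, 1959 and 1898 CPM under the control shRNA and 1169.9, 1141 and 1205 CPM under the CD146 shRNA (log2 fold change -0.7, SE 0.04, adjusted p = 9.5e-18), and HNRNPK was at 952, 979 and 944 CPM in the control libraries and at 611, 630.5 and 633 CPM in the knockdown libraries (-0.62). Both bind pre-mRNA and were among the 10 most abundant genes that fell by at least 1.5-fold. SRSF11 rose from 332 ± 3.95 CPM to 478 ± 15.2 CPM (0.53). Of 43 translation factors 28 fell and 4 rose (median -0.21). EIF4B, which assists the helicase of the cap-binding complex, measured 1090.5, 1085 and 1030.1 CPM with the control and 560.0, 549.6 and 552 CPM with the knockdown (log2 fold change -0.95, SE 0.04, adjusted p = 3.4e-22), and EIF4G2 had 1097, 1170.3 and 1139.5 CPM under the control shRNA and 602, 618 and 644 CPM under the CD146 shRNA (-0.87). Of 44 genes of deadenylation, RNA decay and nonsense-mediated decay 23 fell and 5 rose (median -0.14). UPF1, the central helicase of nonsense-mediated decay, fell from 135 ± 1.96 CPM to 88.2 ± 4.96 CPM (-0.61), and the exosome subunit EXOSC3 fell from 27.6 ± 2.08 CPM to 13.6 ± 0.793 CPM (-1.02), while SMG1, the kinase that phosphorylates UPF1, rose from 402 ± 16.7 CPM to 493 ± 14.8 CPM (0.29). In DESeq2, without a filter on low counts, with limma on FPKM and without any of 3 single libraries (control replicates 1 and 2 and knockdown replicate 1), 3 genes of this list rose.

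Of 46 nuclear pore and nuclear transport genes 35 fell and 1 rose (median log2 fold change -0.23). NUP98 was at 277, 278 and 279 CPM in the control libraries and at 138, 152 and 145 CPM in the knockdown libraries (log2 fold change -0.94, SE 0.04, adjusted p = 2.7e-21), and NUP160, of the outer ring of the pore, fell from 383 ± 4.54 CPM to 214 ± 6.29 CPM (-0.84). NUP210, a membrane nucleoporin, rose from 593 ± 22.5 CPM to 811 ± 41.1 CPM (0.45). Of 40 genes of homologous recombination and Fanconi anaemia repair 15 fell and 5 rose (median -0.09). MRE11, a nuclease that resects broken DNA ends, measured 124, 117 and 118 CPM with the control and 61, 52.8 and 57.6 CPM with the knockdown (log2 fold change -1.07, SE 0.05, adjusted p = 1.7e-20), and the checkpoint kinase CHEK1 had 107, 107 and 108 CPM under the control shRNA and 52.8, 53.5 and 49.5 CPM under the CD146 shRNA (-1.04), while CHEK2 rose from 58.4 ± 1.46 CPM to 77.5 ± 2.98 CPM (0.41). Of 48 chromatin modifiers and DNA methyltransferases 20 fell and 6 rose (median -0.10). The share of falls in this list and in the repair list lay near the 38.0% of all genes of at least 5 CPM. The maintenance methyltransferase DNMT1 was at 225, 231 and 233 CPM in the control libraries and at 153, 163 and 162 CPM in the knockdown libraries (-0.53), and the de novo enzyme DNMT3B fell from 54.5 ± 0.767 CPM to 38.5 ± 1.59 CPM (-0.5). The histone methyltransferase KMT2A rose from 293 ± 16.2 CPM to 439 ± 9.17 CPM (0.58) and the H3K27 demethylase KDM6A rose from 79.6 ± 4.87 CPM to 112 ± 3.88 CPM (0.5).

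Genes of protein entry into the secretory pathway went the other way. Of 50 tested genes of the ER translocon and N-glycosylation 27 rose and 12 fell (median log2 fold change 0.19). GANAB, the glucosidase II subunit that trims new N-glycans, measured 512, 545 and 531 CPM with the control and 1011, 1105 and 1076 CPM with the knockdown (log2 fold change 1.01, SE 0.04, adjusted p = 2e-22). SSR1, a subunit of the translocon-associated TRAP complex, had 452, 482 and 505 CPM under the control shRNA and 762, 834 and 865 CPM under the CD146 shRNA (0.77), and the oligosaccharyltransferase subunit RPN1 rose from 515 ± 19.8 CPM to 799 ± 53.1 CPM (0.63). The signal peptidase complex was split. Its subunit SPCS3 was at 72.5, 75 and 76.5 CPM in the control libraries and at 24.8, 24.9 and 26.3 CPM in the knockdown libraries (log2 fold change -1.56, SE 0.06, adjusted p = 4.9e-24), and SPCS1 fell from 68.4 ± 2.51 CPM to 39.3 ± 4.54 CPM (-0.81), while SPCS2 rose from 123 ± 7.91 CPM to 203 ± 11.7 CPM (0.72). Of 51 genes of COPII and COPI vesicle transport 24 rose and 12 fell (median 0.08). The cargo receptors SURF4 and MCFD2 rose, SURF4 from 542 ± 20.2 CPM to 870.3 ± 53.2 CPM (0.68) and MCFD2 from 239 ± 9.14 CPM to 366 ± 9.65 CPM (0.62), while ARF3 measured 204, 204 and 202 CPM with the control and 100.4, 101 and 101 CPM with the knockdown (-1.01) and the coat subunit COPB1 fell from 247 ± 1.35 CPM to 168 ± 6.28 CPM (-0.55). SPCS1 and MCFD2 overlap other counted genes.

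**Figure D3:**
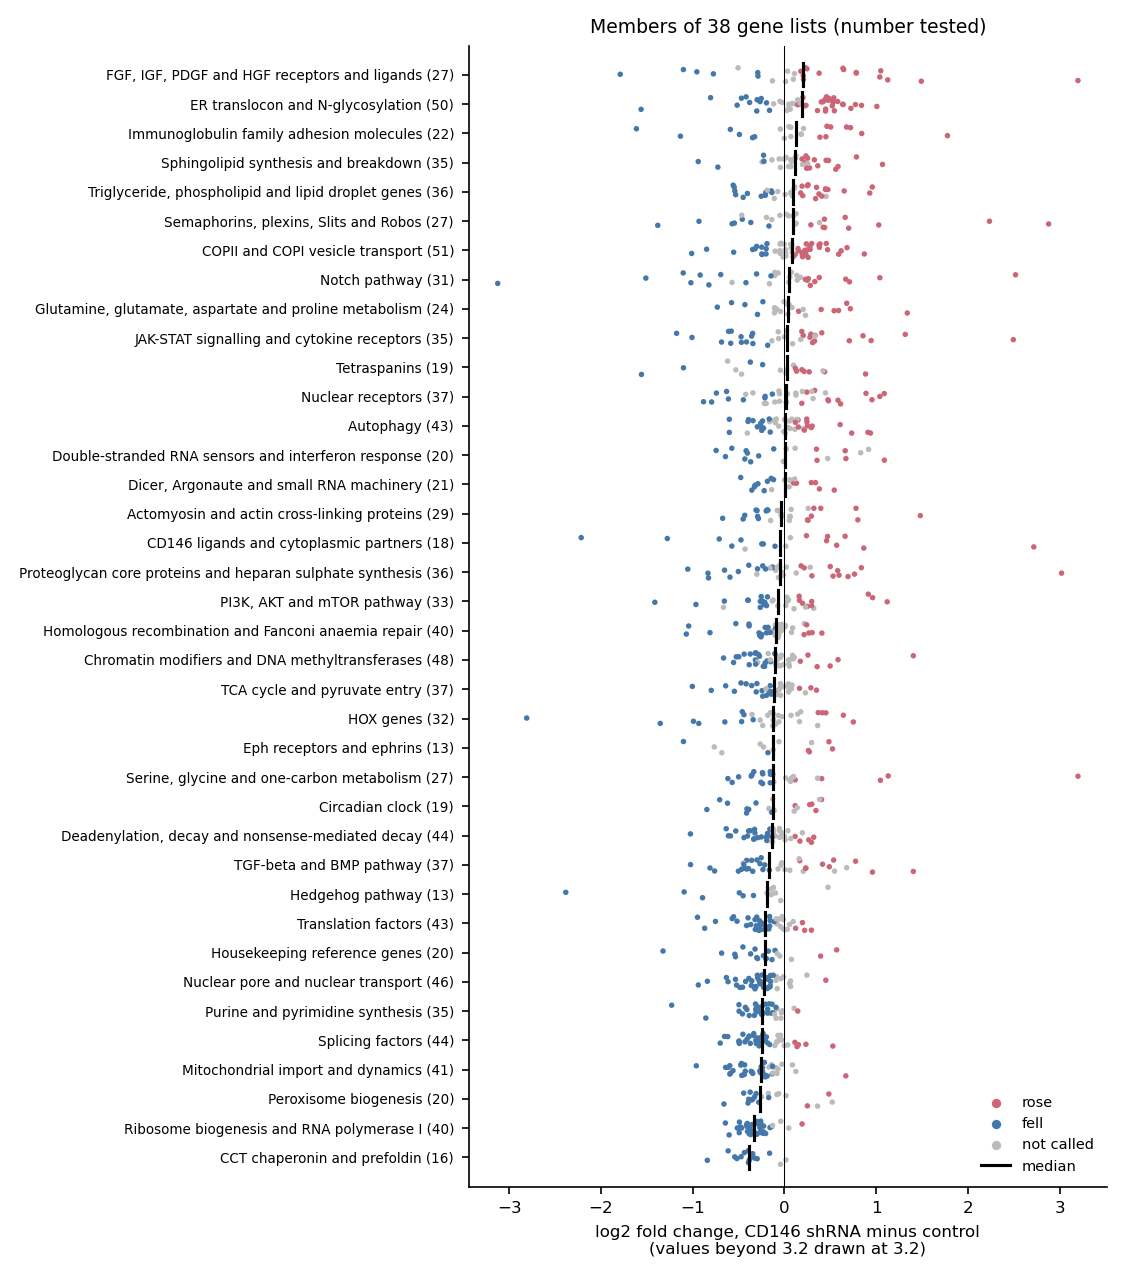
Log2 fold change of every tested member of 38 gene lists (points; red, rose; blue, fell; grey, not called), with a black bar at each list's median and the number of tested members in brackets. The medians run from -0.39 for the CCT chaperonin and prefoldin to 0.21 for growth factor receptors and ligands.

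Metabolic lists differed in direction. Of 35 sphingolipid genes 15 rose and 4 fell (median log2 fold change 0.12). UGCG, which makes glucosylceramide, had 52.7, 52.1 and 56.4 CPM under the control shRNA and 79, 78.9 and 84.3 CPM under the CD146 shRNA (0.58), SPTLC2, of the first enzyme of sphingolipid synthesis, rose from 126 ± 5.97 CPM to 172 ± 8.51 CPM (0.45), and the acid sphingomyelinase SMPD1 fell from 20.1 ± 0.535 CPM to 10.4 ± 0.952 CPM (-0.94). Of 36 triglyceride, phospholipid and lipid droplet genes 15 rose and 11 fell. LPIN2, a phosphatidate phosphatase, rose from 52.7 ± 3.57 CPM to 100.4 ± 4.66 CPM (0.93) and the lipid droplet coat protein PLIN2 fell from 28.3 ± 1.92 CPM to 19.3 ± 0.475 CPM (-0.55). Of 35 genes of purine and pyrimidine synthesis 27 fell and 1 rose (median -0.24). RRM1, the large subunit of ribonucleotide reductase, was at 352, 356 and 338 CPM in the control libraries and at 138, 153 and 155 CPM in the knockdown libraries (log2 fold change -1.23, SE 0.04, adjusted p = 1.7e-24), while its small subunit RRM2 stood at 308 ± 5.79 and 300.0 ± 16.3 CPM and was not called (-0.04, adjusted p = 0.45), with overlapping groups. CAD, which begins pyrimidine synthesis, rose slightly from 211 ± 2.66 CPM to 234 ± 2.02 CPM (0.14). Of 27 genes of serine, glycine and one-carbon metabolism 14 fell and 5 rose. CTH, which makes cysteine from cystathionine, measured 30.7, 31.8 and 27.9 CPM with the control and 68.9, 64.9 and 63.6 CPM with the knockdown (log2 fold change 1.13, SE 0.06, adjusted p = 5e-19), and MTHFD1L fell from 92.2 ± 4.54 CPM to 65.1 ± 2.25 CPM (-0.5).

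Of 37 genes of the TCA cycle and pyruvate entry 18 fell and 3 rose (median log2 fold change -0.11). SUCLA2, a subunit of succinyl-CoA ligase, had 62, 59.1 and 60 CPM under the control shRNA and 28, 30.2 and 32.4 CPM under the CD146 shRNA (log2 fold change -1.0, SE 0.06, adjusted p = 2.4e-17), and malic enzyme ME2 fell from 67.7 ± 0.964 CPM to 39.1 ± 4.52 CPM (-0.8), while ACLY, which returns citrate carbon to acetyl-CoA in the cytosol, rose from 492 ± 15.8 CPM to 627 ± 3.15 CPM (0.35). Of 24 glutamine, glutamate, aspartate and proline genes 7 rose and 6 fell; GFPT1, which opens the hexosamine pathway, rose from 198 ± 5.94 CPM to 326 ± 33.5 CPM (0.72), and ornithine aminotransferase (OAT) fell from 88.7 ± 4.49 CPM to 53.4 ± 1.28 CPM (-0.73). Of 41 genes of mitochondrial import and dynamics 30 fell and 1 rose (median -0.25). The chaperonin HSPD1 was at 986, 1072 and 1001 CPM in the control libraries and at 633, 662 and 665 CPM in the knockdown libraries (log2 fold change -0.64, SE 0.04, adjusted p = 2.2e-16), and prohibitin PHB1 measured 168, 171 and 158 CPM with the control and 77.6, 87.5 and 90.2 CPM with the knockdown (-0.96). The fission factor MFF rose from 89.2 ± 2.5 CPM to 142 ± 7.86 CPM (0.67). Of 20 peroxisome genes 11 fell and 2 rose (median -0.27), with PEX19, a receptor for peroxisomal membrane proteins, down from 41.6 ± 0.747 CPM to 26.3 ± 0.954 CPM (-0.66) and catalase (CAT) up from 57.6 ± 2.04 CPM to 68.5 ± 1.58 CPM (0.25). Of 43 autophagy genes 13 rose and 13 fell, near the shares of all genes tested (26.8% and 28.5%). GABARAPL1 rose from 90 ± 3.63 CPM to 137 ± 3.37 CPM (0.61), and the cargo receptor TAX1BP1 fell from 222 ± 13.7 CPM to 147 ± 7.03 CPM (-0.6).

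Transcription factor families held both rises and falls, as did all genes tested, of which 26.8% rose and 28.5% fell. The naming rule took members of each direction. Of 32 tested HOX genes 5 rose and 9 fell, with HOXC10 up from 38.1 ± 2.01 CPM to 50.5 ± 4.09 CPM (0.41) and HOXC13 down from 18.8 ± 0.633 CPM to 12 ± 0.39 CPM (-0.65). Of 37 nuclear receptors 11 rose and 9 fell. NR2F1 had 124, 118 and 118 CPM under the control shRNA and 169.6, 167 and 166 CPM under the CD146 shRNA (0.48), and the early response receptor NR4A2 rose from 8.14 ± 0.799 CPM to 16.8 ± 0.5 CPM (1.04). The vitamin D receptor (VDR) was at 75.3, 73.9 and 67.7 CPM in the control libraries and at 49.9, 44.8 and 45 CPM in the knockdown libraries (-0.63), and PPARG fell from 34.5 ± 3.1 CPM to 20.5 ± 1.98 CPM (-0.74). HNF4A was not called (0.2). Of 19 clock genes 5 rose and 8 fell. The activator BMAL1 fell from 37.5 ± 3.04 CPM to 24.3 ± 0.728 CPM (-0.62) and the repressor PER2 fell from 23.8 ± 0.821 CPM to 14.6 ± 1.7 CPM (-0.71), while the repressor CRY1 rose from 45.3 ± 0.479 CPM to 55.7 ± 1.03 CPM (0.3).

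Of 20 genes often used as internal references 15 fell and 2 rose (median log2 fold change -0.22). GAPDH was at 2262 ± 63.9 and 2004 ± 93.9 CPM (-0.17) and ACTB at 2276 ± 95.5 and 1858 ± 87.9 CPM (-0.29), both called downward. YWHAZ measured 793, 806 and 791 CPM with the control and 319, 309 and 327 CPM with the knockdown (log2 fold change -1.32, SE 0.04, adjusted p = 6.2e-27), and TMBIM6 had 809.8, 876 and 879.5 CPM under the control shRNA and 505, 547 and 544 CPM under the CD146 shRNA (-0.69). B2M rose from 692 ± 11.2 CPM to 909.7 ± 25.2 CPM (0.39) and GUSB rose from 66.2 ± 1.65 CPM to 98.3 ± 5.31 CPM (0.57). RPLP0, TBP and SDHA were not called (-0.08, -0.05 and 0.08).

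Among the 10 most abundant genes that rose by at least 1.5-fold were the ER chaperones HSP90B1 from 1755 ± 71.1 CPM to 2656 ± 152 CPM, HSPA5 from 1557 ± 73 CPM to 2517 ± 200 CPM and CALR from 961 ± 48.9 CPM to 1708 ± 139 CPM. CD46 and CD55, membrane proteins that shield cells from complement, rose as well, CD46 from 1370.2, 1401 and 1460.3 CPM with the control shRNA to 2824, 2769 and 2877 CPM with the CD146 shRNA and CD55 from 948, 1049.8 and 1039 to 1850.4, 1895 and 1898 CPM (log2 fold changes 1.0 and 0.89). The sodium pump subunit ATP1B3 was at 614, 613 and 618 CPM in the control libraries and at 1386, 1474 and 1450.0 CPM in the knockdown libraries (log2 fold change 1.22, SE 0.04, adjusted p = 1.1e-25). IQGAP1, a scaffold of the actin cortex, rose from 1568 ± 56.2 CPM to 2509 ± 93.4 CPM, and the mucin MUC13 from 1244 ± 65.8 CPM to 2025 ± 107 CPM. CPS1 and MT-ND4L, a mitochondrially encoded subunit of complex I that overlaps MT-ND4, were the other two (log2 fold changes 0.9 and 0.6). Among the 10 that fell were the cytosolic chaperones HSP90AA1 from 3084 ± 84.4 CPM to 2022 ± 90 CPM and HSPA8 from 1441 ± 68.5 CPM to 782 ± 90.6 CPM, the RNA-binding protein YBX1 from 832 ± 31.7 CPM to 548 ± 19.9 CPM and the chromatin protein NUCKS1 from 839.9 ± 19.2 CPM to 453 ± 23 CPM. The other 6 were EIF4B, EIF4G2, HNRNPA2B1, HNRNPK, HSPD1 and TMBIM6.

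Below the 12 largest changes of each direction, the next 12 genes with at least 20 CPM in the higher group included secreted and signalling proteins. CGA, the alpha chain of the glycoprotein hormones, measured 398, 380.4 and 362 CPM with the control and 1517, 1601 and 1659 CPM with the knockdown (log2 fold change 2.07, SE 0.04, adjusted p = 6.8e-32). USH1C, a scaffold of microvilli, had 32.1, 25.5 and 27.1 CPM under the control shRNA and 130.2, 135 and 129 CPM under the CD146 shRNA (log2 fold change 2.21). SGK1, a kinase induced by corticoids and stress, rose from 48 ± 3.1 CPM to 176 ± 1.31 CPM (1.87). The protease inhibitor SPINK5 rose from 47.3 ± 2.81 CPM to 187 ± 1.64 CPM (1.98), the cyclooxygenase PTGS2 from 11.5 ± 0.193 CPM to 41.1 ± 1.26 CPM (1.84), the UDP receptor P2RY6 from 23.4 ± 0.803 CPM to 86.2 ± 2.56 CPM (1.88) and the keratin KRT13 from 30.2 ± 1.4 CPM to 102 ± 4.59 CPM (1.76). DNER, GDPD5, CELF2, CCN2 and the endogenous retroviral envelope gene ERVV-2, which has a near-identical neighbour and is uncertain, made up the rest (log2 fold changes 1.99, 1.99, 1.85, 2.03 and 2.17). Among the falls, SERPINE2, an inhibitor of thrombin and plasminogen activators, was at 517, 590.5 and 584.9 CPM in the control libraries and at 187, 182 and 183 CPM in the knockdown libraries (log2 fold change -1.61, SE 0.05, adjusted p = 4.2e-28). PTPRJ, a tyrosine phosphatase of the cell membrane, fell from 166 ± 7.95 CPM to 57.9 ± 1.55 CPM (-1.52), the adaptor subunit AP1S1 from 84.1 ± 4.96 CPM to 28.6 ± 1.12 CPM (-1.56), the polycomb protein CBX6 from 68.6 ± 2.76 CPM to 24.6 ± 1.17 CPM (-1.48), the GTPase-activating protein ARHGAP42 from 31.3 ± 0.7 CPM to 10.9 ± 0.866 CPM (-1.51) and the metallothionein MT2A from 21.2 ± 1.01 CPM to 7.41 ± 0.71 CPM (-1.5). The remaining falls of this range were TMEM164, NGRN, FASTKD5, CHORDC1, CADM1 and SPCS3.

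Positions in the genome (GENCODE version 29, GRCh38) were read for 10 Mb bins with at least 20 tested genes of at least 5 CPM. The lowest and the highest bin both lay on chromosome 11. Between 90 and 100 Mb 22 of 23 genes fell (median log2 fold change -0.88), among them MRE11, and SESN3 was the 1 that rose. Between 100 and 110 Mb 14 of 21 fell (median -0.33), among them ARHGAP42. Between 0 and 10 Mb 52 of 84 fell (median -0.39), among them RRM1 and NUP98, and between 40 and 50 Mb 24 of 37 (median -0.37), among them NUP160 and PTPRJ. On the same chromosome 51 of 67 genes rose between 70 and 80 Mb (median 0.45), among them P2RY6, 26 of 32 between 30 and 40 Mb (median 0.34) and 92 of 167 between 60 and 70 Mb (median 0.23), among them GANAB. The bin of MCAM itself, 110 to 120 Mb, had a median of -0.02 with 17 of 60 genes risen and 21 fallen. Over all of chromosome 11 the shifts cancelled (median 0.02). On chromosome 7, 34 genes between 140 and 150 Mb had a median of -0.45 with 25 fallen, and the median of the chromosome was -0.19. For genes named from these stretches, the part of the position in their change was not tested.

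**Figure D4:**
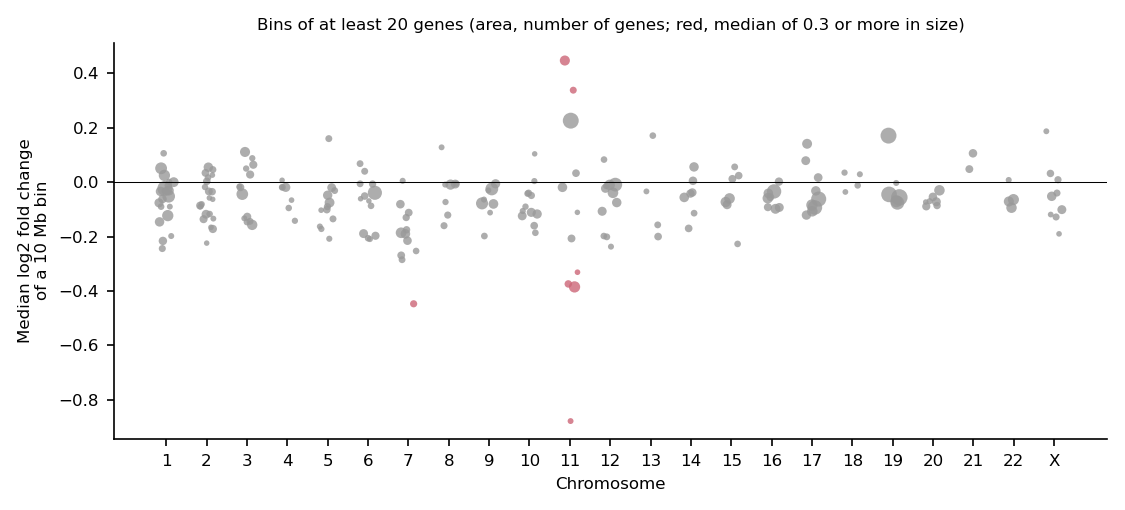
Median log2 fold change of 10 Mb bins with at least 20 genes of at least 5 CPM, by chromosome (area, number of genes; red, a median of 0.3 or more in size). Chromosome 11 holds both the lowest bin (-0.88) and the highest (0.45).

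The 3' untranslated regions (3' UTRs) of 10982 genes with at least 3 CPM were read for words of 7 bases, MCAM left out, and 38.9% of these genes fell. A hairpin RNA pairs with messages through its seed, a short stretch at its 5' end, and messages with a matching word in the 3' UTR can be lowered. The hairpin sequences were not at hand, so no word was known beforehand. For each of 14539 words present in at least 150 genes, the median log2 fold change of genes with the word was set against that of genes without it at like UTR length. The ranking uses the same fold changes as the lists above, so it is a description with no test, and a part of such words in any change was not tested. The middle 98% of words lay between -0.038 and 0.069. The lowest were AGGTGTA (-0.11, 819 genes) and GGTGTTA (-0.10, 829 genes), and AGGTGTT (-0.08, 1364 genes) and GGTGTAT (-0.07, 754 genes) ranked 6 and 10. These 4 share GGTGT. The other 8 of the lowest 12 do not, and lie in 150 to 198 genes each; CTAAACG (-0.09, 174 genes) and GCGATCC (-0.08, 195 genes) ranked 3 and 4. Words at the upper end, such as GCGTCAC (0.14, 163 genes) and CGGCCGC (0.12, 213 genes), reached larger differences. In an earlier pass over a narrower set of transcripts (8512 genes), GCGATCC ranked first (-0.13, 160 genes), followed by AGGTGTA at rank 2 (651 genes) and GGTGTTA at rank 3 (648 genes), while AGGTGTT took rank 5 (1083 genes).

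The words of ranks 1, 2 and 6 were then counted together as 1 kind of site, with overlapping words counted as 1 site. This grouping was made after the ranking was seen. Among 8663 genes with 0 sites 36.1% fell (median log2 fold change -0.05), among 1721 with 1 site 47.6% (median -0.13), among 446 with 2 sites 55.6% (median -0.20) and among 152 with 3 or more sites 47.4% (median -0.12). The last group did not continue the order, and its UTRs were the longest, with a median of 6762 bases against 867 with 0 sites. Among UTRs of 500 to 1500 bases, 57.0% of 426 genes with a site fell against 36.1% of 3048 without, and among those of 1500 bases or more, which hold most genes with a site, 46.9% of 1815 against 33.9% of 2761. Among UTRs under 500 bases it was 57.7% of 78 against 38.4% of 2854. Of 181 genes that fell at least 2-fold 45.9% held a site, of those that fell by less 25.8%, of those not called 17.7%, and of those that rose at least 2-fold 13.7%. Of all genes examined 21.1% held one. These shares are not matched for UTR length. The words were chosen on the same fold changes, so the order follows in part from that choice. The 8-base word AGGTGTTA lay in 294 genes, of which 53.7% fell and 20.1% rose.

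**Figure D5:**
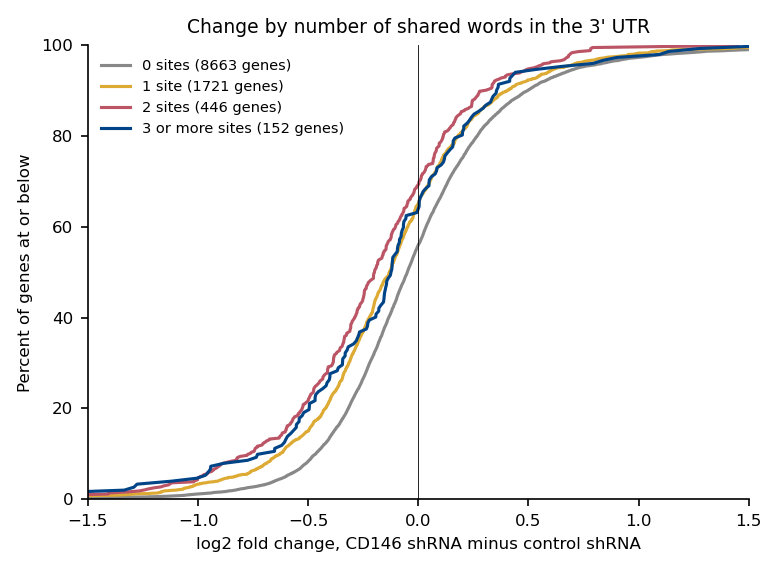
Percent of genes at or below each log2 fold change, for genes with 0, 1, 2 and 3 or more sites of the shared words in the 3' UTR. The curves of genes with sites lie to the left of the curve with 0 sites; the curve with 2 sites lies furthest left over most of the range (medians -0.05, -0.13, -0.20 and -0.12).

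To show what such sites look like, 30 bases around the 8-base word (capitals, printed 5′ to 3′ on the gene's strand, GRCh38, GENCODE) follow for 4 named genes that fell and 2 that rose, all of which hold it.
LTBP1 (chr2:33399189-33399218, plus strand): aagctgctagcAGGTGTTAattggatccct
SUCLA2 (chr13:47943328-47943357, minus strand): tggatggctgaAGGTGTTAaatgtgctata
PER2 (chr2:238244267-238244296, minus strand): tgtgcttacacAGGTGTTAaacagtttttc
EIF2AK2 (chr2:37101925-37101954, minus strand): aagtaaatctcAGGTGTTAcatcattgcac
LIFR (chr5:38475991-38476020, minus strand): tgtggaggggtAGGTGTTAtgtgattgatg
IGF1R (chr15:98960317-98960346, plus strand): ggtttccaccaAGGTGTTAgatttctcctc
The log2 fold changes of the first 4 were -1.02, -1.0, -0.71 and -0.37, and LIFR and IGF1R rose (0.71 and 0.78). Of the named genes examined other than MCAM, 31 of 91 that fell and 11 of 91 that rose hold a site, as do 21.1% of all genes examined. Genes were named and words chosen on the same fold changes, so these counts are no separate evidence. Examples are YWHAZ with 2 sites and NTN1 and PIK3CA with 3 each, which fell, and FYN with 2, DICER1 with 1 and SSR1 with 1, which rose. The 3' UTR of MCAM holds 0 sites. Before its stop codon MCAM holds AGGTGTT 2 times, shown here because MCAM is the targeted gene.
MCAM (chr11:119312559-119312588, minus strand): gcgtggaaatcAGGTGTTtggctgatggca
MCAM (chr11:119311326-119311355, minus strand): ctgttggagacAGGTGTTgaatgcacggcc
The same word lies before the stop codon, 1 or more times, in 13.9% of the 10982 genes. The share with 2 copies is not given here, and the part of this word in the fall of MCAM was not tested. For genes without a site the values were as follows. Among ribosome biogenesis genes 30 of 34 without a site fell (median -0.32), 14 of the 16 CCT and prefoldin genes, none with a site, fell, and of nuclear pore genes 26 of 35 without a site fell (median -0.21).

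Promoters (250 bases before to 50 after the start, RefSeq, GRCh38.p14) were searched on both strands for 3 motifs chosen after the lists had been seen. The ER stress response element (CCAAT and CCACG with 9 bases between them) was in 22 of 27305 promoters (0.0806%). Of the 13 whose genes were tested 7 rose and 2 fell, with a median log2 fold change of 0.35. Of the 11285 tested genes without it 2998 rose and 3793 fell (median -0.04). The motif was chosen after the data were seen, so these counts are no test. Among the 7 that rose were the 3 abundant ER chaperones above, shown here with the fixed bases in capitals.
HSP90B1 (chr12:103930216-103930234, plus strand): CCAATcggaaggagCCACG
HSP90B1 (chr12:103930321-103930339, minus strand): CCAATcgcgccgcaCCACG
HSPA5 (chr9:125241391-125241409, minus strand): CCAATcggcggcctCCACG
CALR (chr19:12938384-12938402, minus strand): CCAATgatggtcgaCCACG
HSPA5 measured 1472, 1600.1 and 1598 CPM with the control and 2286, 2640.5 and 2625 CPM with the knockdown (log2 fold change 0.69, SE 0.05, adjusted p = 1e-15). In the translocon and N-glycosylation list 1 of 42 promoters held the element, that of ALG12, which was not called (-0.02), and of the 41 others 23 rose. The cAMP response element (TGACGTCA) was in 1.98% of promoters. Of 365 tested genes with it 89 rose and 131 fell (median -0.08 against -0.03 without). CGA holds it 2 times within 40 bases, shown here because CGA is a textbook target of this element.
CGA (chr6:87095235-87095254, minus strand): tcaaatTGACGTCAtggtaa
CGA (chr6:87095217-87095236, minus strand): aaaaatTGACGTCAtggtaa
The promoter of MCAM holds it too.
MCAM (chr11:119317149-119317168, minus strand): ccccccTGACGTCAgccccc
The E-box (CACGTG) was in 7.43% of promoters and in 10.0% of those of tested genes, and the median log2 fold change was -0.05 with it against -0.04 without. It lay in 12 of 32 ribosome biogenesis promoters (37.5%), and 11 of these 12 genes fell, as did 18 of the 20 without it. It can overlap the end of the ER stress response element. In the other 5 lists searched it was in 0 to 22.6% of promoters. A motif in this window is a match of letters and was not tested as a site of binding.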

How the data were processed

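Per the submitters' processing notes, reads were trimmed with cutadapt 1.9.1, aligned with HISAT2 2.2.1 and counted with HTSeq 0.6.1. The deposited values used are raw counts per gene by the authors and, for 1 alternative, the FPKM values the authors deposited. What genome build, annotation and strand setting served is not given in the sources used here. Gene names for 58371 of 61806 identifiers, positions and 3' UTRs came from GENCODE version 29 (GRCh38).

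The 3 CD146 shRNA libraries were compared with the 3 control shRNA libraries in edgeR 4.0.16 (R 4.3.3): TMM scaling, its default filter on low counts, the quasi-likelihood test and Benjamini-Hochberg adjustment over all genes tested, threshold 0.05. The fit was run on simulated data in which 200 genes changed. Far more were called in these libraries, so the simulation cannot speak for the scaling used. No 2 libraries agreed within sampling noise. Members, gene lists and tests were chosen with earlier results of these data known. Genes were named by rule: MCAM, up to 2 risen and 2 fallen members a list with the smallest adjusted p, separate groups and at least 5 CPM, the 10 most abundant genes a direction changed by at least 1.5-fold, and ranks 13 to 24 by size with at least 20 CPM. Lists are described by counts and medians, with no set test. The 7-base words were first ranked on a narrower set of transcripts (8512 genes), then on all principal transcripts (10982 genes) for coverage, after the first ranks were seen. The grouping of words, the promoter motifs and the rule for genes that set a library apart were also chosen after seeing the data. Alternatives were DESeq2 1.42.0, its size factors in edgeR, other filters, a replicate block, limma 3.58.1 on log2(FPKM + 0.1), each library left out in turn, and genes open to the HepG2 trace left out. A few genes and 1 list that were tested are not reported here.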

Additional observations from a re-analysis of the deposited data

How the results depend on the processing

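The count of changed genes was 9385 (4555 risen, 4830 fallen). It was 7461 in DESeq2 (3405 and 4056), 9385 with DESeq2 size factors (4419 and 4966), 9361 without the filter on low counts, 7445 among genes of at least 5 CPM scaled on their own (3687 and 3758), 8664 with limma on FPKM (3749 and 4915) and 9366 without genes open to the trace. Leaving out 1 library gave 8645 to 8894. The replicate numbers were not taken as pairs, since the labels do not say what a shared number marks. Over genes of at least 5 CPM, deviations from the group mean correlated at 0.103, 0.05 and 0.031 between same-numbered control and knockdown libraries. Between unlike-numbered ones they correlated at -0.106 to 0.065. The fit with the replicate block gave 9543. MCAM stayed between -2.32 and -2.17. Of 185 named genes, POLR1D alone lost its call, with limma (0.16) and without control replicate 3 (0.14). The lowest 10 Mb bin, 90 to 100 Mb on chromosome 11, had a median of -0.88; no 5 Mb bin of that stretch reached 20 genes, and the lowest 5 Mb bin, 5 to 10 Mb, had -0.633. The trace in knockdown replicate 3 was 0.118%, and 0.112% and 0.11% under the other definitions. Medians moved by over 0.1 for 4 lists among genes of at least 5 CPM, 3 without knockdown replicate 2 and 1 without control replicate 1. Among genes of at least 5 CPM, with fewer members tested, falls went from 10 to 5 in the Notch list and from 9 to 5 in the double-stranded RNA and HOX lists. The cause of these moves was not tested. In the narrower transcript set genes with a word site had a median of -0.16 against -0.06 without. There 45.1% of the genes that fell at least 2-fold held one, and 21.6% of all genes examined. Without each library in turn, the median with a site ran from -0.155 to -0.133.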
